A study of Homo sapiens with 16 samples.

Results

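The genes described here encode TRAF adaptors (TRAF1, TRAF2, TRAF3, TRAF4 and TRAF5), inhibitor of apoptosis (IAP) proteins (BIRC2, BIRC3 and XIAP) and CFLAR, a decoy for the initiator caspase of death receptors. They were chosen by name, as 9 of the 34687 named rows of the authors' value table, and all 9 were found and passed the filter on detection. RNA was measured on 16 Illumina bead arrays in TMD8 and HBL-1, established human lines of diffuse large B cell lymphoma of the ABC (activated B cell-like) subtype. Both lines were treated for 8 h: each gave 3 arrays with MI-2, a small molecule that inhibits the protease MALT1, 1 array with z-VRPR-fmk, a peptide that blocks the same protease, and 4 arrays with vehicle. Doses and the vehicle were not given in the sources used here. The labels leave unsaid whether the arrays of a group were separate cultures, and p-values therefore measure the spread among arrays, part or all of which may be technical.

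TRAF proteins bind the cytoplasmic tails of TNF receptor family members and recruit ubiquitin ligases. In B cells, TRAF2 and TRAF3 hold the kinase NIK (MAP3K14) together with the ligases cIAP1 (BIRC2) and cIAP2 (BIRC3), which tag NIK for destruction and so restrain the alternative NF-kB pathway. XIAP binds and inhibits active caspases, and CFLAR (c-FLIP) blocks the activation of CASP8 at death receptors. MALT1 lies upstream of the classical NF-kB pathway, of which BIRC3, TRAF1 and CFLAR are textbook target genes, and BIRC3 is also the fusion partner of MALT1 in MALT lymphoma.

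Levels below are log2 of background-corrected, quantile-normalized signal with an offset of 16, so that a level of 4 is the floor. The level of one gene is not set against that of another, since each probe has its own brightness. Median raw intensities were 82.5 to 103 per array, and 34.1% to 40.8% of the 47323 probes were detected, meaning a detection p under 0.05. The lowest shares were on the HBL-1 arrays numbered 2 (34.1% with MI-2 and 34.6% with vehicle). Of the B cell markers 7 of 7 were measured, 5 of them detected on all arrays, while CD3D, CD3E, CD3G and CD4 of the T cell list were detected on 0 arrays. The other T cell markers were detected on some arrays, CD2 on 11, CD5 on 8 and CD8A on 6 of the 16, and 0 of 3 NK cell markers passed the filter. Of the myeloid markers 2 of 6 passed it, and of the fibroblast markers 2 of 4. In bulk RNA such as this, fewer cells of a type and less RNA per cell cannot be told apart.

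**Figure D1:**
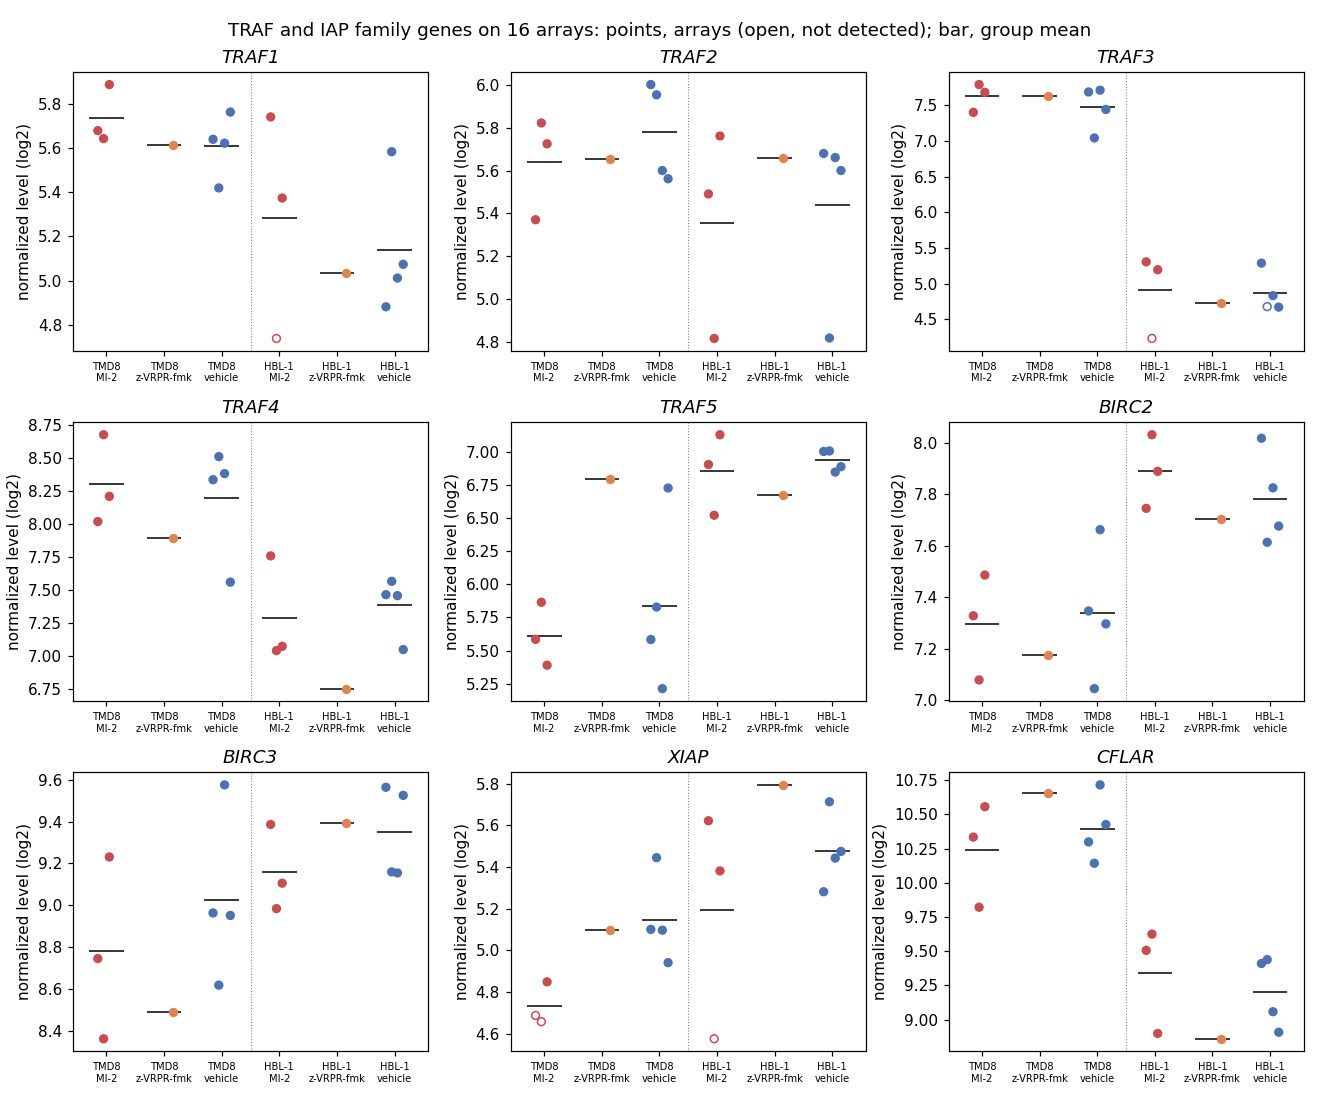
Level of each gene (log2 normalized signal) on every array, grouped by line and treatment; each point is 1 array. TRAF3 and CFLAR lie higher on all 8 TMD8 arrays than on any HBL-1 array, while the treated and vehicle arrays of each line share most of their range.

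The differences past the threshold among these genes were between the lines. Between vehicle-treated TMD8 and HBL-1 cells, TRAF3, CFLAR and TRAF4 were higher in TMD8, and TRAF5 and BIRC2 were lower in TMD8. These were 5 of the 9 genes, 3 higher and 2 lower, at an adjusted p under 0.05 (limma, Benjamini-Hochberg over 17566 genes). Over all genes tested, 37.3% were called, 18.6% higher and 18.7% lower in TMD8, so a large share of the transcriptome differed between these lines. The median size of the difference was 0.47 on the log2 scale over the 9 genes and 0.25 over all genes.

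TRAF3, the adaptor that brings NIK to the cIAP ligases, had the widest gap. Its level was 7.69, 7.04, 7.71 and 7.44 on the TMD8 vehicle arrays, and 5.29, 4.68, 4.83 and 4.67 on the HBL-1 vehicle arrays. No TMD8 array came near any HBL-1 array, and the HBL-1 values lay close to the floor, where 3 of the 4 arrays detected the probe. Treated arrays lay at similar levels, with 7.40, 7.79 and 7.68 on the MI-2 arrays and 7.64 on the z-VRPR-fmk array of TMD8, and with 5.31, 4.23 and 5.20 on the MI-2 arrays and 4.73 on the z-VRPR-fmk array of HBL-1. The vehicle groups averaged 7.47 ± 0.31 in TMD8 and 4.87 ± 0.29 in HBL-1 (SD, n = 4 each), a log2 difference of 2.60 (SE 0.22, 95% confidence interval 2.14 to 3.07, limma adjusted p = 4.25e-08), or 6.08-fold. In size it exceeded that of 98.4% of all genes tested. It was 1.33 without background correction, and 1.39 in the authors' deposited table.

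CFLAR, the decoy of CASP8, was at 10.30, 10.14, 10.71 and 10.43 on the TMD8 vehicle arrays, against 9.41, 9.44, 9.06 and 8.91 on the HBL-1 vehicle arrays. All TMD8 arrays lay above all HBL-1 arrays. The log2 difference was 1.19 (SE 0.19, interval 0.78 to 1.60, limma adjusted p = 8.11e-05), or 2.28-fold, and it stayed between 1.09 and 1.28 under every alternative run.

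TRAF4, a TRAF protein best known for roles outside classical TNF receptor signalling, was at 8.33, 8.51, 8.38 and 7.56 on the TMD8 vehicle arrays, against 7.46, 7.57, 7.46 and 7.05 on the HBL-1 vehicle arrays. The TMD8 array numbered 4 was the lowest of its group and lay within the HBL-1 range, while the other TMD8 arrays lay above that range. The log2 difference was 0.81 (SE 0.22, limma adjusted p = 0.00602), or 1.76-fold. A dimmer TRAF4 probe, detected on 2 of 4 TMD8 and 1 of 4 HBL-1 vehicle arrays, gave 0.24 (adjusted p = 0.479) in a fit of each probe on its own, in which 36.9% of probes were called.

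TRAF5, an adaptor of CD40, CD27 and related lymphocyte receptors, went the other way. It was at 5.58, 5.83, 5.21 and 6.73 on the TMD8 vehicle arrays, against 7.01, 7.01, 6.85 and 6.89 on the HBL-1 vehicle arrays. The groups did not overlap, but the TMD8 array numbered 4 lay close to HBL-1 and far from the other TMD8 arrays. The means were 5.84 ± 0.65 in TMD8 and 6.94 ± 0.08 in HBL-1 (SD, n = 4 each), a log2 difference of -1.10 (SE 0.24, interval -1.60 to -0.60, limma adjusted p = 0.00116), or 2.15-fold lower in TMD8. Without both TMD8 arrays numbered 4, the difference was -1.40 (adjusted p = 6.76e-06). A second TRAF5 probe was detected on 0 of 4 TMD8 and 4 of 4 HBL-1 vehicle arrays and was at least 1.09-fold higher in HBL-1, which was not past the threshold (-0.34, adjusted p = 0.0881). In the authors' deposited table, which averages 5 probes for the gene, 3 of them detected on 0 vehicle arrays, the difference was -0.21 (limma adjusted p = 0.00561).

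BIRC2, which encodes cIAP1, was at 7.35, 7.04, 7.66 and 7.30 on the TMD8 vehicle arrays, against 8.02, 7.61, 7.83 and 7.68 on the HBL-1 vehicle arrays. The TMD8 array numbered 3 fell within the HBL-1 range, so the groups overlapped. The log2 difference was -0.45 (SE 0.14, limma adjusted p = 0.0197), or 1.36-fold lower in TMD8. The call rests on 1 probe and on single arrays: a second BIRC2 probe, detected on all 16 arrays, gave 0.05 (adjusted p = 0.876). Without HBL-1 vehicle array 1 the difference was -0.37 (adjusted p = 0.0742), and without TMD8 vehicle array 2 it was -0.35 (adjusted p = 0.0767).

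The other genes were not past the threshold. TRAF1, an adaptor without the RING domain of its relatives that binds TRAF2 and the cIAPs, was at 5.64, 5.42, 5.62 and 5.76 on the TMD8 vehicle arrays, against 4.88, 5.58, 5.01 and 5.07 on the HBL-1 vehicle arrays. The HBL-1 array numbered 2 was the one that reached into the TMD8 range. The log2 difference was 0.47 (SE 0.19, limma adjusted p = 0.057), and without that HBL-1 array it was 0.62 (adjusted p = 0.0129). BIRC3, which encodes cIAP2, differed by -0.32 (SE 0.20, adjusted p = 0.245), and by -0.51 (adjusted p = 0.0496) without TMD8 vehicle array 3. TRAF2, the adaptor that carries the cIAPs, differed by 0.34 (SE 0.22, adjusted p = 0.251). XIAP, the direct caspase inhibitor, differed by -0.33 (SE 0.18, adjusted p = 0.181). Vehicle arrays of the lines did not overlap for 3 of the 9 genes (TRAF3, TRAF5 and CFLAR), while that was so for 37.3% of all genes.

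**Figure D2:**
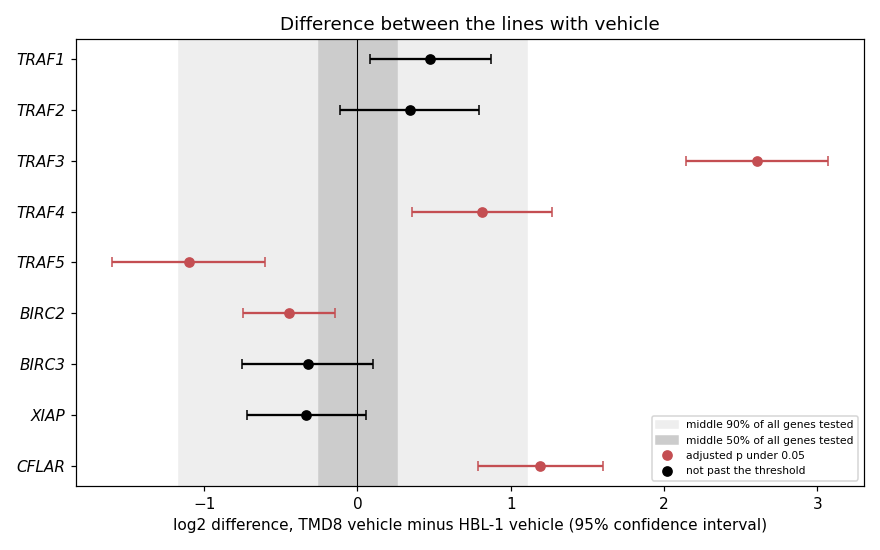
Log2 difference of each gene between TMD8 vehicle and HBL-1 vehicle arrays (4 each), with its 95% confidence interval from limma; values right of 0 are higher in TMD8. TRAF3 stands at 2.60, CFLAR at 1.19 and TRAF5 at -1.10.

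Some markers of other cell types also separated the lines. CDH1 was detected on 8 of 8 TMD8 arrays and 0 of 8 HBL-1 arrays, and EPCAM on 1 of 8 TMD8 arrays and 8 of 8 HBL-1 arrays, while KRT8 and KRT18 were detected on 0 arrays. The summed log2 level of the 2 measured epithelial markers, of 4 listed, was 13.2 to 13.9 in TMD8 and 11.7 to 12.7 in HBL-1. This sum pools 2 genes that went opposite ways. Sums of log2 levels are not amounts of RNA and depend on the brightness of each probe. The summed log2 level of the 3 measured T cell markers, of 7 listed, was 14.5 to 15.6 in TMD8 and 13.2 to 14.3 in HBL-1. The sums of the myeloid markers (9.07 to 10.1 in TMD8 and 8.75 to 9.64 in HBL-1) and of the fibroblast markers (8.65 to 9.17 in TMD8 and 8.55 to 9.68 in HBL-1) overlapped. Their part in the line differences was not tested.

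The promoters of these genes were read because several of them are known NF-kB targets. The windows run from 250 bases before to 50 bases after a gene's start in RefSeq (build GRCh38.p14), and 19 windows belonged to the 9 genes. The 10-base NF-kB consensus, searched on both strands, was in 3 of the 19 windows (a window each of TRAF3, BIRC3 and CFLAR) and in 5.91% of all 35116 windows. The 3 windows are printed 5′ to 3′ on the strand given, with the matches in capitals.
TRAF3 promoter, chr14:102777199-102777498 (+ strand): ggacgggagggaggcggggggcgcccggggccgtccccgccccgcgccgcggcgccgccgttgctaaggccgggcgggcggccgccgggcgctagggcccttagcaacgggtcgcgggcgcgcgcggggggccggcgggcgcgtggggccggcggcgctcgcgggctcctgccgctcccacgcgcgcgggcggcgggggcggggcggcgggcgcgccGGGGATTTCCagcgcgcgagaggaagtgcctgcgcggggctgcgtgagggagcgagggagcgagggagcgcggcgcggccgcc
BIRC3 promoter, chr11:102317234-102317533 (+ strand): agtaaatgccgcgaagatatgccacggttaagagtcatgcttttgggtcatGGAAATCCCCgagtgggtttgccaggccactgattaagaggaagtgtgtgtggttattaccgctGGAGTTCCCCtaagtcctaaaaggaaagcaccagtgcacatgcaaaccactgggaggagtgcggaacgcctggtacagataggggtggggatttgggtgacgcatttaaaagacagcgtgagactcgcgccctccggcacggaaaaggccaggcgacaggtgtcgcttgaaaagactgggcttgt
CFLAR promoter, chr2:201118466-201118765 (+ strand): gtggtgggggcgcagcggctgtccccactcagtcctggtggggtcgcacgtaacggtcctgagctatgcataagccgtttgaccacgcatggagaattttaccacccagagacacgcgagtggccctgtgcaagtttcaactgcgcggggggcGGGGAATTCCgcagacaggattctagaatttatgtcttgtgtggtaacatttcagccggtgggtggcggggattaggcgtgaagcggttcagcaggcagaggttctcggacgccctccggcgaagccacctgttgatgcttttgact
The TRAF3 window held 1 match, GGGGATTTCC, whose first base is at -33 from the start site. The BIRC3 window held 2 matches on the opposite strand, printed as GGAAATCCCC at -199 and GGAGTTCCCC at -135. The CFLAR window printed held 1 match, GGGGAATTCC, at -97. The other CFLAR windows held none, nor did any window of TRAF1, TRAF2, TRAF4, TRAF5, BIRC2 or XIAP. A match describes the letters of a window and is not evidence that a factor binds there. Of the 3 genes with a match, TRAF3 and CFLAR were higher in TMD8 by the values above, and BIRC3 was not past the threshold.

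The question of the treated arrays was which transcripts the inhibitors changed at 8 h. None of the 9 genes was past the adjusted threshold in any treatment comparison by limma. With MI-2 the count was 0 of 9 in TMD8, where 0% of all genes were called, and 0 of 9 in HBL-1, where 0.0114% were called. For the mean MI-2 difference over both lines it was 0 of 9, against 0.00569% of all genes. It was also 0 of 9 for the difference between the lines in their response to MI-2, against 0% of all genes. At an unadjusted p under 0.05 the count was 0 in TMD8 (4.63% of all genes), 0 in HBL-1 (5.36%), 1 for the mean of both lines (XIAP, 5.71%) and 0 for the difference between the lines (4.06%). These counts are from the fit of group means, which leaves the replicate numbers out.

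BIRC3, the IAP gene best known as an NF-kB target, was lower with treatment in every pair by its brightest probe. It was at 8.75, 8.36 and 9.23 on the TMD8 MI-2 arrays, against 8.96, 8.62, 9.57 and 8.95 on the TMD8 vehicle arrays. In HBL-1 it was at 9.39, 8.98 and 9.11 with MI-2, against 9.56, 9.16, 9.15 and 9.52 with vehicle. The groups overlapped in both lines, yet the MI-2 array was below the vehicle array of the same line and number in 6 of 6 pairs. Counting z-VRPR-fmk, all 8 treated arrays were below their vehicle array by the brightest probe, as for 0.82% of all genes. The 6 MI-2 pairs alone did so for 2.42%. The mean MI-2 difference was -0.22 (SE 0.15, interval -0.55 to 0.11, limma adjusted p = 0.894). It was -0.12 without TMD8 MI-2 array 2, -0.13 without TMD8 vehicle array 3, -0.33 without TMD8 MI-2 array 3 and -0.60 with arrays scaled to medians (adjusted p = 0.222). With the replicate number as a block, the value was -0.20 (SE 0.07, interval -0.37 to -0.04, limma unadjusted p = 0.0223, adjusted p = 0.682). By p it ranked 573 of the 17566 genes in that fit. By line, the block fit gave -0.27 in TMD8 (limma unadjusted p = 0.0282, adjusted p = 0.794) and -0.13 in HBL-1 (unadjusted p = 0.232). By p these ranked 620 and 5018 of the 17566 genes. The other BIRC3 probes were lower in 5 and 4 of the 6 MI-2 pairs. With z-VRPR-fmk, both of these probes were below their vehicle array in TMD8 and above it in HBL-1.

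XIAP was the gene of the 9 with an unadjusted p under 0.05 for the mean MI-2 difference in the fit without a block. With the replicate number as a block, XIAP was at -0.38 (SE 0.17, limma unadjusted p = 0.0520), and BIRC3 was the gene under 0.05. By p in that fit, BIRC3 ranked 573 and XIAP 1281 of the 17566 genes. In TMD8 XIAP was at 4.69, 4.66 and 4.85 with MI-2, against 5.10, 5.45, 5.10 and 4.94 with vehicle. All 3 MI-2 arrays lay below all vehicle arrays, which held in TMD8 for 5.58% of genes, and 1 of the 3 MI-2 arrays detected the probe. In HBL-1 it was at 5.62, 4.58 and 5.38 with MI-2, against 5.28, 5.71, 5.44 and 5.48 with vehicle, and the groups overlapped, while groups free of overlap made up 6.09% of genes in HBL-1. The log2 difference was -0.41 (SE 0.20, limma adjusted p = 0.999) in TMD8 and -0.29 (SE 0.20, adjusted p = 0.941) in HBL-1. Over both lines the difference was -0.35 (SE 0.14, interval -0.65 to -0.05, adjusted p = 0.854). Without the HBL-1 MI-2 array numbered 2, one of the arrays with the lowest share of detected probes, it was -0.20 over both lines and 0.02 in HBL-1.

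TRAF1 was at 5.68, 5.64 and 5.89 with MI-2 in TMD8 and at 5.74, 4.74 and 5.37 with MI-2 in HBL-1. Set against the vehicle values above, the groups overlapped in both lines, and the HBL-1 array numbered 2 was again the outermost. TRAF2 was at 5.37, 5.82 and 5.73 with MI-2 in TMD8, against 6.003, 5.95, 5.60 and 5.56 with vehicle. In HBL-1 it was at 5.49, 4.81 and 5.76 with MI-2, against 5.68, 4.82, 5.66 and 5.60 with vehicle. The arrays numbered 2 were the low ones of both HBL-1 groups, and the groups overlapped in both lines.

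TRAF4 was at 8.02, 8.68 and 8.21 with MI-2 in TMD8 and at 7.76, 7.04 and 7.07 with MI-2 in HBL-1. TRAF5 was at 5.58, 5.87 and 5.39 with MI-2 in TMD8 and at 6.91, 6.52 and 7.13 with MI-2 in HBL-1. Both genes overlapped their vehicle groups in both lines. BIRC2 was at 7.33, 7.08 and 7.49 with MI-2 in TMD8 and at 7.75, 8.03 and 7.89 with MI-2 in HBL-1. CFLAR was at 10.33, 9.82 and 10.56 with MI-2 in TMD8 and at 9.51, 9.62 and 8.90 with MI-2 in HBL-1. These too overlapped the vehicle groups of their line.

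The intervals of all 9 genes held 0 in each line, and those given next are for the mean over both lines. For BIRC2, the mean MI-2 difference was 0.03 (interval -0.20 to 0.26), the narrowest interval of the 9. For CFLAR it was -0.01 (interval -0.32 to 0.30), and for TRAF4 0.01 (interval -0.34 to 0.35). TRAF1 was at 0.14 (interval -0.17 to 0.44), with MI-2 arrays above their vehicle arrays in 5 of 6 pairs. Without both HBL-1 arrays numbered 2 it was 0.35 over both lines (adjusted p = 0.906) and 0.57 in HBL-1 (SE 0.15, adjusted p = 0.9996). TRAF2 was at -0.11 (interval -0.46 to 0.24), TRAF3 at 0.10 (interval -0.25 to 0.45) and TRAF5 at -0.16 (interval -0.54 to 0.23). The TRAF5 value rests on TMD8 vehicle array 4, which has no MI-2 array of its number: without it the difference was -0.01 over both lines and 0.07 in TMD8, where 3 of 3 MI-2 arrays were above the vehicle array of their number. These intervals are not limits of detection at the adjusted threshold. XIAP, whose interval for the mean over both lines left out 0, had a limma adjusted p of 0.854. The intervals hold for the quantile-normalized levels, and changes within them were not excluded by these arrays. When each array was scaled to its median instead, the median of all genes shifted by -0.18 in TMD8 and -0.33 in HBL-1. The mean MI-2 differences of BIRC2 (-0.34), CFLAR (-0.38) and TRAF4 (-0.36) then lay outside the intervals above. Those of TRAF1, TRAF2, TRAF3 and TRAF5 stayed inside theirs. Both the signs and the sizes of such small differences thus depend on the scaling.

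**Figure D3:**
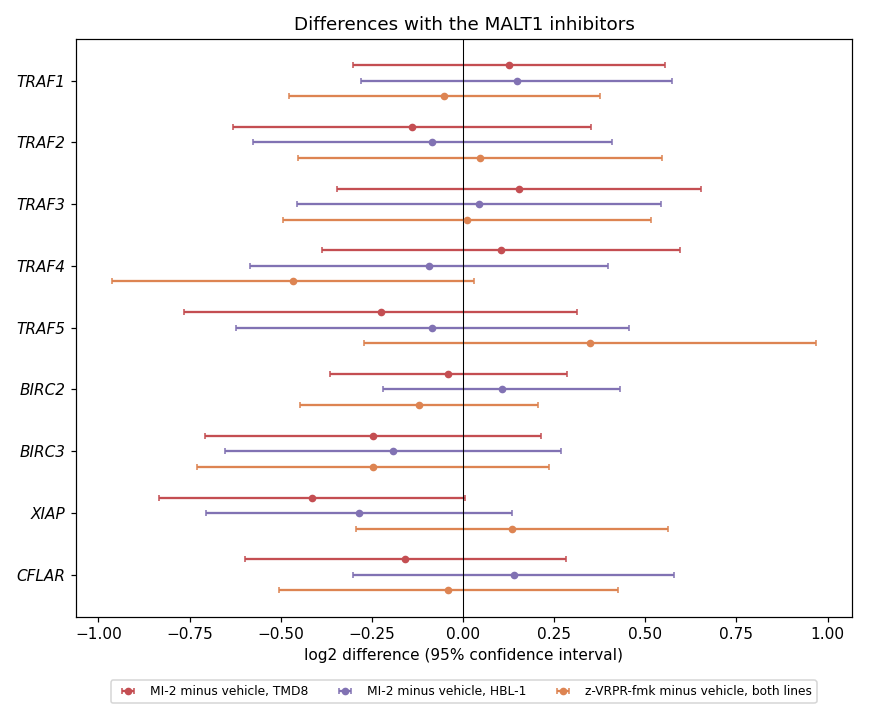
Log2 difference from vehicle with its 95% confidence interval from limma, for MI-2 in TMD8, MI-2 in HBL-1 (3 against 4 arrays each) and z-VRPR-fmk over both lines (1 array per line). Every interval includes 0, and that of XIAP with MI-2 in TMD8 runs from -0.83 to 0.00.

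z-VRPR-fmk had 1 array per line, so its difference from vehicle was fitted as equal in both lines. None of the 9 genes was past the adjusted threshold by limma (0.00569% of all genes were). At an unadjusted p under 0.05, without a replicate block, the count was also 0, against 4.21% of all genes. TRAF4 was at 7.89 with z-VRPR-fmk in TMD8 and 6.75 in HBL-1, a fitted difference of -0.47 (SE 0.24, adjusted p = 0.999) that was 0.02 with the replicate number as a block. BIRC3 was at 8.49 in TMD8 and 9.39 in HBL-1, a difference of -0.25 (SE 0.23). With the block the BIRC3 difference was -0.30 (limma unadjusted p = 0.0451, adjusted p = 0.9997), which ranked 532 of the 17566 genes by p. In the fit of each probe on its own, without the block, the other BIRC3 probes gave -0.03 (SE 0.21) and -0.43 (SE 0.23). TRAF5 was at 6.80 in TMD8 and 6.68 in HBL-1, which lay 0.96 above the vehicle mean in TMD8 and 0.26 below it in HBL-1. Its fitted difference of 0.35 (SE 0.29) was -0.07 with the block. The vehicle array numbered 4, the partner of the z-VRPR-fmk array, was the lowest vehicle array for TRAF4 in TMD8 (7.56) and in HBL-1 (7.05), and the highest for TRAF5 in TMD8 (6.73). The z-VRPR-fmk arrays of the other genes lay at 5.61 for TRAF1, 5.65 for TRAF2, 7.17 for BIRC2, 5.10 for XIAP and 10.66 for CFLAR in TMD8. In HBL-1 they lay at 5.03 for TRAF1, 5.66 for TRAF2, 7.70 for BIRC2, 5.79 for XIAP and 8.86 for CFLAR. The fitted differences of TRAF1, TRAF2, TRAF3, BIRC2, XIAP and CFLAR ran from -0.12 to 0.13, all with adjusted p-values of 0.999 by limma.

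MI-2 was also set against z-VRPR-fmk, at doses that are not given. None of the 9 genes was past the adjusted threshold by limma, against 0.0171% of all genes. XIAP was the 1 gene at an unadjusted p under 0.05, as were 7.53% of all genes, with a difference of -0.48 (SE 0.21, interval -0.93 to -0.04, adjusted p = 0.629). With the replicate number as a block XIAP was at -0.62 (SE 0.32, limma unadjusted p = 0.0826). It was at -0.17 without background correction and -0.18 in the authors' deposited table. TRAF4 differed by 0.47 (SE 0.24, adjusted p = 0.692) and TRAF5 by -0.50 (SE 0.30, adjusted p = 0.732). With the replicate number as a block both signs turned, to -0.18 for TRAF4 and 0.06 for TRAF5. Without the HBL-1 z-VRPR-fmk array TRAF5 differed by -1.12 (adjusted p = 0.632), and without the TMD8 one by 0.11 (adjusted p = 0.997).

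Arrays of a line that share a number lay close together for some of these genes. CFLAR on the HBL-1 arrays numbered 1 and 2 was at 9.51 and 9.62 with MI-2, against 9.41 and 9.44 with vehicle. On the arrays numbered 3 and 4 it was at 8.90 with MI-2 and 8.86 with z-VRPR-fmk, against 9.06 and 8.91 with vehicle. The treated and vehicle arrays of a number thus lay within 0.19 of each other, while the vehicle arrays spanned 0.53. TRAF5 in TMD8 showed the wider case: array 4 was at 6.80 with z-VRPR-fmk and 6.73 with vehicle, and the other 6 TMD8 arrays lay between 5.21 and 5.87. A gap of at least this size (0.86) above the other arrays of the line was found for 4 of 17566 genes on this pair of arrays, TRAF5 included. Within TMD8 numbers TRAF5 differed by at most 0.18, while its vehicle arrays spanned 1.52. Other cases went the other way. Within HBL-1 numbers TRAF5 differed by up to 0.49, and its vehicle arrays spanned 0.16. XIAP differed by up to 1.14 in HBL-1 and 0.79 in TMD8, against vehicle spans of 0.43 and 0.50.

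**Figure D4:**
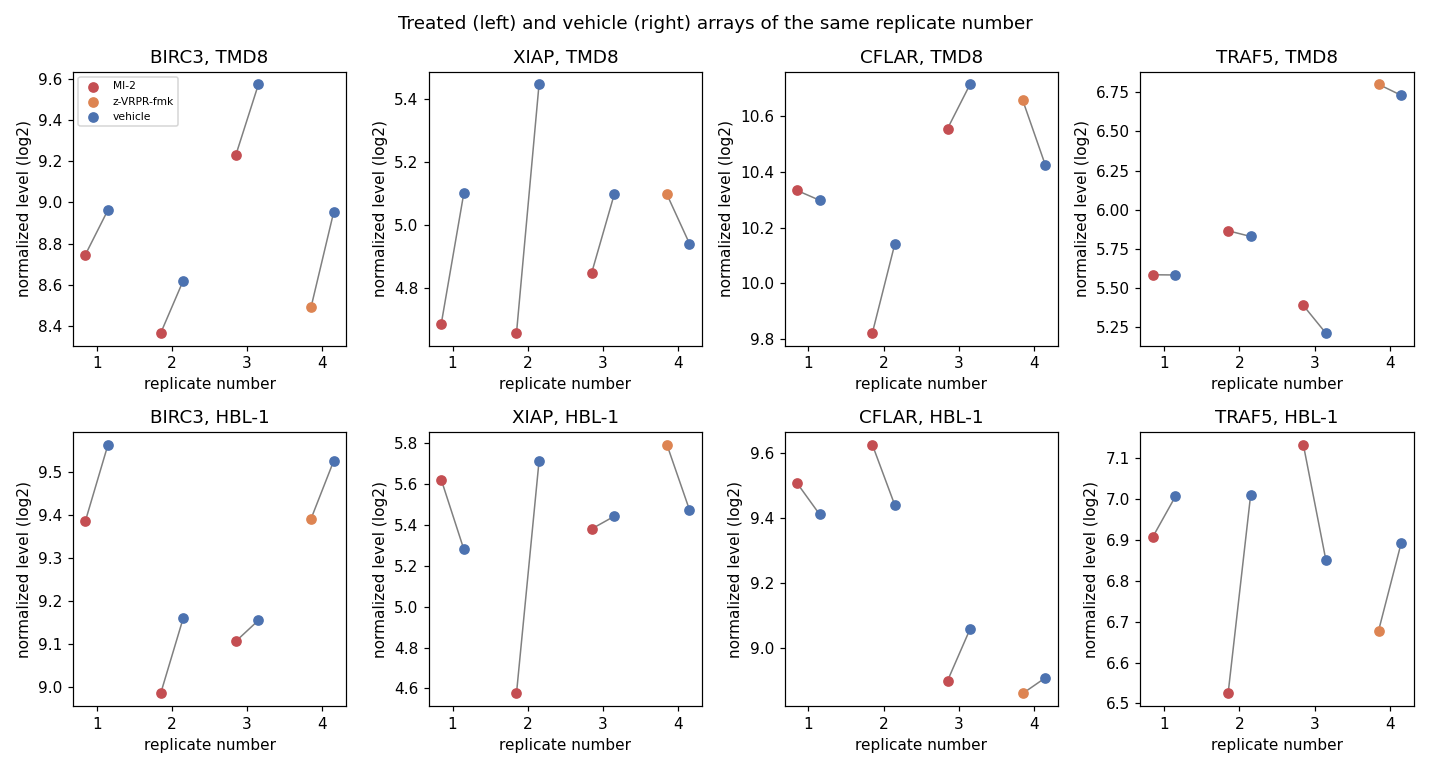
Levels of BIRC3, XIAP, CFLAR and TRAF5 (log2 normalized signal) on treated and vehicle arrays of the same line and number, joined by a line. BIRC3, by its brightest probe, is lower on the treated array in all 8 pairs, and TRAF5 in TMD8 separates by number and not by treatment.

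For each gene the most similar profiles were found by Pearson's r over the 16 arrays after the mean of each line was taken off, as a description. BIRC3 was most like SOCS3 (r = 0.91), an inhibitor of JAK-STAT signalling, and C10ORF10 (0.89), and SOCS3 was close to the floor in HBL-1. CFLAR was most like SAT1 (0.91), an enzyme of polyamine breakdown, and PPP3CB (0.89), a catalytic subunit of calcineurin. TRAF5 was most like UBR3 (0.89) and TPRG1 (0.88), and TRAF2 most like LOC653874 (0.89) and CDC25C (0.88), a phosphatase of mitotic entry. TRAF3 was most like LOC91664 (0.85) and LPA (0.81), TRAF1 most like LOC100128090 (0.85) and PDK2 (0.80), and TRAF4 most like HS.57079 (0.84) and MFAP1 (0.79). XIAP was most like NCOR1 (0.84) and CCDC94 (0.84), and BIRC2 most like ASL (0.80) and OSM (0.80). Among the 9 genes themselves the highest value was 0.61, between BIRC2 and BIRC3, which are neighbours on the chromosome. The arrays share replicate numbers, so these values also carry what the arrays of a number have in common.

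Around these genes, partners in the same pathways were read in the line comparison from 4 lists. The lists count symbols, and some of these are older names of a gene that is also listed or described above. Of other TRAF, TRAF-binding and alternative NF-kB genes, 29 of 36 listed symbols were measured. Of these 10 were higher, 2 lower and 17 not past the threshold, which is 41.4% called, close to the 37.3% of all genes. Their median difference was 0.28, against 0.00 for all genes. The higher ones included NFKB2 (1.35) and RELB (1.27), the subunits of the alternative pathway, TNFAIP3 (1.27), the A20 ubiquitin editor, TRAFD1 (1.40) and TANK (1.03), a TRAF-binding adaptor. NIK itself (MAP3K14) was higher by 0.63. MAP4K2 (-0.63) and TRAF7 (-0.46) were the lower ones.

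Of the receptors that bind TRAFs, 9 of 14 were measured, with 2 higher and 4 lower in TMD8 (66.7% called, against 37.3% of all genes, median -0.08). CD40 (0.51) and TNFRSF1B (0.33) were higher. The receptors of the ligands BAFF and APRIL were lower, with TNFRSF13B at -1.36, TNFRSF13C at -1.07 and TNFRSF17 at -0.92, and TNFRSF14, the receptor HVEM, was at -1.07. Of other IAP genes and antagonists, 5 of 11 listed symbols were measured and 1 was higher, BIRC6 (0.73), a giant ubiquitin ligase (20% called, against 37.3% of all genes, median 0.26).

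Of the death receptor and caspase genes, 18 of 22 were measured, with 5 higher and 2 lower (38.9% called, close to the 37.3% of all genes, median -0.14). Among the higher ones were TNFRSF21 (0.52), FADD (0.38), the adaptor of CASP8, and the death receptor FAS (0.38). CASP10, the neighbour of CFLAR on the chromosome, was also higher: it was detected on 0 of 4 HBL-1 vehicle arrays and was at least 1.15-fold higher in TMD8. MLKL (-2.04), the effector of necroptosis, and TNFRSF10A (-0.72), a TRAIL receptor, were lower. In the treatment comparisons 0 genes of any of the 4 lists were past the adjusted threshold by limma. At an unadjusted p under 0.05, the mean MI-2 difference had 2 of 29 TRAF-binding genes, 2 of 9 receptors, 0 of 5 IAP genes and 2 of 18 death receptor or caspase genes, against 5.71% of all genes. For z-VRPR-fmk it was 3 of the 9 receptors and 0 of each of the other lists, against 4.21% of all genes.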

How the data were processed

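The authors deposited 1 signal intensity and 1 detection p-value per probe and array, per the file headers. Intensities were on a linear scale, without normalization. A second table deposited by the authors holds log2 values for 34687 named genes, of unstated processing. The submitters' processing notes name Partek, with no version. Slide, probe annotation and build were not given in the sources used here. Probes carry no gene names and the log2 rows carry no probes, so they were joined by value within 0.02 over all 16 arrays: 34648 genes matched, 26182 of them a single probe, and 2 matched after the arrays were shuffled. The 9 genes matched within 0.00386.

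Intensities were corrected with limma's neqc (version 3.58.1, R 4.3.3; offset 16, background from the detection p-values) and quantile normalized. Kept were the 22426 probes detected at a p under 0.05 on 3 or more arrays, and each gene took its brightest probe, leaving 17566 genes. The brightest probe was chosen by mean level over all arrays. Tests were two-sided, by limma (lmFit and eBayes) on the 6 group means over all 16 arrays, with Benjamini-Hochberg adjustment over all genes and a threshold of 0.05. The z-VRPR-fmk model held 1 effect for both lines. A group whose arrays all failed detection was given a bound. The script was tested on simulated data. The number of arrays limits the precision.

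Replicate numbers in the labels were shared by treated and vehicle arrays of a line. Deviations from group means correlated between same-numbered MI-2 and vehicle arrays at 0.158 to 0.311 in TMD8 and 0.227 to 0.287 in HBL-1, so the numbers were taken to pair arrays within a line. Across lines they correlated at -0.11 to 0.16 and were not.

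The 9 genes, the 4 lists and the alternatives were chosen with earlier results of these data known. The rule for named genes took all 9, the 2 most correlated genes of each, and up to 5 called genes per direction of each list; MAP3K14 was added after its value was seen. One gene of the lists that the rule would name is not reported here.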

Additional observations from a re-analysis of the deposited data

Results flagged for a closer look

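TRAF2 on the HBL-1 vehicle array numbered 2 was at 4.82, far from the other HBL-1 vehicle arrays, which lay at 5.68, 5.66 and 5.60. The HBL-1 MI-2 array numbered 2 was at 4.81, against 5.49 and 5.76 on the other MI-2 arrays. These arrays had the lowest shares of detected probes, 34.1% with MI-2 and 34.6% with vehicle, and the part of this in the TRAF2 values was not tested. Each of the 9 genes was looked at in both vehicle groups with Dixon's 95% critical value, which by its definition flags about 1 in 20 groups by chance.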

How the results depend on the processing

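Of the 9 genes, 5 were called between the lines, and 3 to 7 were over 28 alternatives, with 4 to 6 when 1 array was left out. The count was 3 with arrays scaled to medians, where TRAF4 (0.75, adjusted p = 0.0584) and BIRC2 (-0.54, adjusted p = 0.186) were lost and 4003 of 17566 genes were called in place of 6546. With the mean of a gene's probes, BIRC2 was -0.20 (adjusted p = 0.285), and in the authors' deposited table -0.21 (limma adjusted p = 0.0549). TRAF1 was past the threshold in 6 alternatives. TRAF3, CFLAR and TRAF5 stayed past it in all 28, though without background correction TRAF5 was -0.58, and TRAF4 was 0.52 in the authors' deposited table. No sign changed among the 252 line values. In the treatment comparisons 0 genes were called under any alternative, and 147 of 1512 values changed sign.

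With the replicate block, 0 of the 9 genes were called in every treatment comparison, so the paired fit changed no call. Taking the number as a replicate block across lines, and leaving out both HBL-1 arrays numbered 2 or both TMD8 arrays numbered 4, were chosen after seeing the data, and the line count was then 7, 6 and 5. Slide as a block was not run, since slides are not named. Low signal limits TRAF3 and XIAP, which 14 and 13 of the 16 arrays detected.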
